A study of Mus musculus with 16 samples.

Results

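The effect of extra dietary methionine on jejunal gene expression was measured in mice that received no radiation. The comparison set 4 RNA-sequencing libraries from the methionine supplemented diet against 4 from the methionine adequate diet, chosen by their labels (diet, and a dose of 0 Gy gamma radiation), so that it used 8 of the 16 libraries of the study. All mice were CBA/J males, an inbred strain, 8 weeks old, and the tissue was the proximal jejunum, which follows the duodenum. The supplementation is given as 300%, without the amount that this refers to, and the period as 6 days, which may refer to the diet or to the time after irradiation. The other 8 libraries came from mice on the same 2 diets that received 8.5 Gy of gamma rays, and entered the fit and the side-by-side values only. No animal is named for a library, so the p-values measure the spread between libraries, which may be in part technical.

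Methionine is an essential amino acid that cells activate to S-adenosylmethionine, the donor of methyl groups for DNA, RNA, proteins and lipids. What remains is recycled to methionine with folate-borne carbon, passed through the transsulfuration pathway to cysteine, or used for polyamines. Type I and type III interferons are antiviral cytokines that bind receptors on the epithelium and activate transcription factors, Stat2 and Irf9 among them, which switch on interferon-stimulated genes through an element with repeated GAAA letters. Interferon-gamma, made by lymphocytes, acts through a receptor of its own and induces a partly different set, among it the immunity-related and guanylate-binding GTPases.

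The unirradiated libraries from the adequate diet, replicates 1 to 4, held 2.57, 10.68, 9.52 and 9.61 M counts (M for mega). Those from the supplemented diet held 8.77, 8.77, 9.67 and 9.24 M counts. Adequate replicate 1 was the shallowest of the 16 libraries and stood apart on the first principal component of the 8 libraries (34.8% of the variance), at -80.5 against -13.9 to 29.9 for the others. Markers of the labelled tissue were present: Sis, the sucrase-isomaltase of the brush border, was at 5991 ± 814 and 8106 ± 1453 CPM (mean ± SD, n = 4 per group here and below; adequate, then supplemented). Vil1 (villin) was at 1900.0 ± 221 and 2053 ± 243 CPM, and Muc2, the goblet cell mucin, at 1859.6 ± 154 and 1797 ± 178 CPM. CPM are counts scaled to a common library total by the TMM method (trimmed mean of M-values). Where a pair of means or ranges is given, the adequate diet comes first. In bulk tissue, fewer cells of a type and less RNA per cell cannot be told apart.

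On the supplemented diet, genes of the interferon response rose. The Ifit3 and Ifit3b genes belong to a family with members that bind foreign RNA, and Ifitm3 blocks virus entry. In this order, they rose by log2 1.97 ± 0.38, 1.96 ± 0.27 and 1.84 ± 0.28 (± SE for log2 values here and below). Slfn5, Phf11d, Ifi204 and Ifi202b rose by log2 1.78 to 2.11. Of 16558 genes tested, 33 (0.199%) were called at an adjusted p under 0.05 (edgeR's quasi-likelihood test, p-values adjusted by Benjamini-Hochberg), 28 higher (0.169%) and 5 lower (0.0302%). The libraries of the 2 diets did not overlap for any of the 33. The log2 fold changes of the 28 lay between 0.57 and 2.11, and 20 of them were over 2-fold. Of the 28, 14 belonged to a listed interferon or major histocompatibility complex (MHC) group. At an unadjusted p under 0.05, 999 genes (6.03%) were higher and 978 (5.91%) lower, and 780 (4.71%) were higher with no overlap between the groups. The median log2 fold change of all genes tested was -0.01.

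How many genes passed depended on the libraries in the fit. With the 8 unirradiated libraries alone, 111 genes were called higher and 28 lower, among them 31 of the 33, all but ENSMUSG00000082697 and Ly6c1. Of the genes in the 3 interferon-responsive lists described below, 40 were called higher there, against 13 of 70 in the fit to 16 libraries. In the fit to all 16 libraries, no gene was called without adequate replicate 1, adequate replicate 2 or supplemented replicate 1, or without the 3 libraries under 4 M counts. Leaving out supplemented replicate 4 gave 45 higher and 4 lower. With all 16 libraries and 16558 genes, DESeq2 called 165 higher and 61 lower, and limma voom 41 higher and 11 lower. Each of the 33 kept its sign in every alternative that tested it (30 of them with protein-coding genes alone). This was nearly fixed in advance, because the groups of the 33 did not overlap and each alternative used the same libraries or fewer. Supplemented replicate 4 held the lowest supplemented value for 26 of the 28 higher genes.

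**Figure D1:**
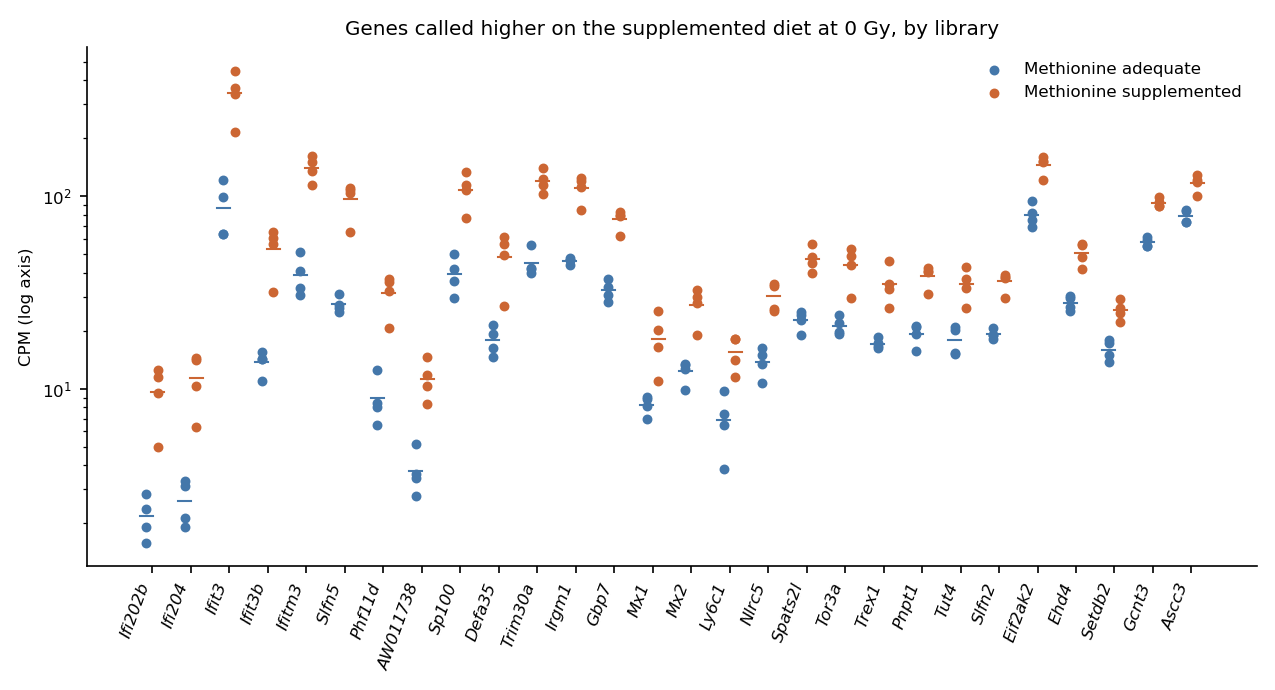
CPM on a log axis (vertical) in each unirradiated library for the 28 genes called higher, ordered by fold change. Points are libraries (blue, adequate; orange, supplemented), short lines are means of 4, and for each gene all supplemented points lie above all adequate points.

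The interferons themselves were hardly counted. Ifnb1, Ifne and 4 of the 5 Ifna genes listed in the files (Ifna2, Ifna4, Ifna12 and Ifna13) had 0 counts in all 8 libraries. An observed 0 is still compatible with a true mean of up to about 3 counts over the pooled libraries of a group. Ifng, the gene of interferon-gamma, had 0 counts on the adequate and 3 on the supplemented diet, summed over 4 libraries. The fifth Ifna gene, Ifna16, and the type III genes Ifnl2 and Ifnl3 had 1 count each in one diet and 0 in the other. Ifnk, with 52 counts on the adequate and 34 on the supplemented diet, was the only one of the 11 to pass the filter on low counts. Ifnk had a log2 difference of -0.79 ± 0.41 (adjusted p = 0.47) and overlapping groups. For the other 10 interferon genes, a difference was not detectable at this depth.

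Receptors and signal carriers gave no call in the fit to 16 libraries. Of 25 interferon signalling genes tested, 7 (28%, against 6.03% of all genes) were higher and none lower at an unadjusted p under 0.05, and the median log2 fold change was 0.19. DESeq2 called 2 higher and edgeR on the 8 libraries alone 3. Stat2, a transcription factor of the type I and type III response, was at 89.3, 77.5, 98.05 and 75.1 CPM on the adequate and 151, 138, 122 and 120.1 CPM on the supplemented diet, with no overlap (log2 0.64 ± 0.14, adjusted p = 0.0636). Irf7, the factor that amplifies type I interferon production, was at 206 ± 27.4 and 354 ± 47.1 CPM (log2 0.78 ± 0.25, adjusted p = 0.223). The receptor genes Ifnar1 (log2 0.09 ± 0.13), Ifnar2 (0.27 ± 0.14), Ifngr1 (0.25 ± 0.14), Ifngr2 (-0.15 ± 0.20) and Ifnlr1 (0.04 ± 0.26) had overlapping groups, as did the kinase genes Jak1 (0.15 ± 0.12) and Tyk2 (-0.21 ± 0.12). Irf1 was at 164 ± 17.5 and 152 ± 4.31 CPM (log2 -0.11 ± 0.14). With the 8 libraries alone, Stat2 (adjusted p = 0.0278) and Irf7 (adjusted p = 0.015) were among the calls.

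Among 30 antiviral interferon-stimulated genes, 6 rose and none fell, namely Ifit3, Ifit3b, Trim30a, Mx1, Mx2 and Eif2ak2. At an unadjusted p under 0.05, 28 of 30 were higher (93.3%) against 6.03% of all genes, and 27 of 30 had no overlap between the diets, against 4.71%. The median log2 fold change of the list was 1.08. DESeq2 called 23 of its members higher, limma voom 8 and edgeR on the 8 libraries alone 26.

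Ifit3 was at 63.7, 63.7, 98.9 and 122 CPM on the adequate and 449, 341, 363 and 216 CPM on the supplemented diet. The 4 supplemented libraries all exceeded the highest adequate one, with replicate 1 highest and replicate 4 lowest (log2 1.97 ± 0.38, adjusted p = 0.0482). The call was lost in 17 of 25 alternatives, limma voom and upper-quartile scaling among them, so it is a weak one for Ifit3. Its neighbour Ifit3b, at 14.2, 10.95, 14.2 and 15.6 CPM on the adequate and 64.8, 56.4, 60.7 and 31.7 CPM on the supplemented diet, also had its lowest supplemented value in replicate 4 (log2 1.96 ± 0.27, adjusted p = 0.0147). Both genes are close copies whose reads an estimated count can divide between them, so their separate values are uncertain. Mx1, the gene of a dynamin-like GTPase, was at 8.82, 9.01, 8.14 and 6.94 CPM on the adequate and 20.1, 25.2, 16.5 and 10.96 CPM on the supplemented diet (log2 1.15 ± 0.21, adjusted p = 0.0361), the highest value being replicate 2. Mx2, annotated as a polymorphic pseudogene, rose from 12.3 ± 1.66 to 27.3 ± 5.85 CPM (log2 1.15 ± 0.21, adjusted p = 0.0348). Trim30a, a ubiquitin ligase of the tripartite motif family, was at 42.2, 40.1, 55.8 and 42.04 CPM on the adequate and 140.4, 124, 115 and 102 CPM on the supplemented diet, a rise of log2 1.41 ± 0.24 (adjusted p = 0.0225). Eif2ak2, the kinase PKR that stops translation on sensing double-stranded RNA, was at 69.02, 74.8, 94.6 and 81.6 CPM on the adequate and 153, 151, 159.6 and 121 CPM on the supplemented diet (log2 0.86 ± 0.14, adjusted p = 0.0218). Its lowest supplemented library was again replicate 4, and still above all adequate libraries.

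Other members of the list were not called in the fit to 16 libraries. Ifi44 had the largest fitted difference of the list, at 22.6, 16.2, 39.6 and 20.6 CPM on the adequate and 191, 183, 162 and 118 CPM on the supplemented diet (log2 2.72 ± 0.79, adjusted p = 0.198), and its groups did not overlap. Isg15, a ubiquitin-like modifier, was at 67.6 ± 18.8 and 200.4 ± 56.6 CPM (log2 1.56 ± 0.37, adjusted p = 0.116), and Usp18, the protease that removes it, at 37.2 ± 7.15 and 109 ± 16.6 CPM (log2 1.55 ± 0.30, adjusted p = 0.0523). The oligoadenylate synthetases, which activate RNase L, gave log2 1.73 ± 0.41 for Oas2, 1.10 ± 0.29 for Oas3, 0.99 ± 0.28 for Oas1a and 1.07 ± 0.29 for Oasl2, each without overlap. The RNA sensors Ddx58 (RIG-I, log2 0.73 ± 0.19), Ifih1 (MDA5, 0.79 ± 0.19) and Dhx58 (LGP2, 1.10 ± 0.31) also had no overlap, with adjusted p = 0.135, 0.0933 and 0.172. The smallest differences of the list were those of Parp14 (log2 0.49 ± 0.19) and Cmpk2 (0.48 ± 0.31), whose groups overlapped, as did those of Rsad2 (viperin, 0.82 ± 0.47). In the fit to the 8 libraries alone, Ifi44 (adjusted p = 0.00596), Isg15 (0.0234), Usp18 (0.0016), Oas2 (0.0101), Ddx58 (0.00644), Ifih1 (0.0234) and Dhx58 (0.00318) were called higher.

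**Figure D2:**
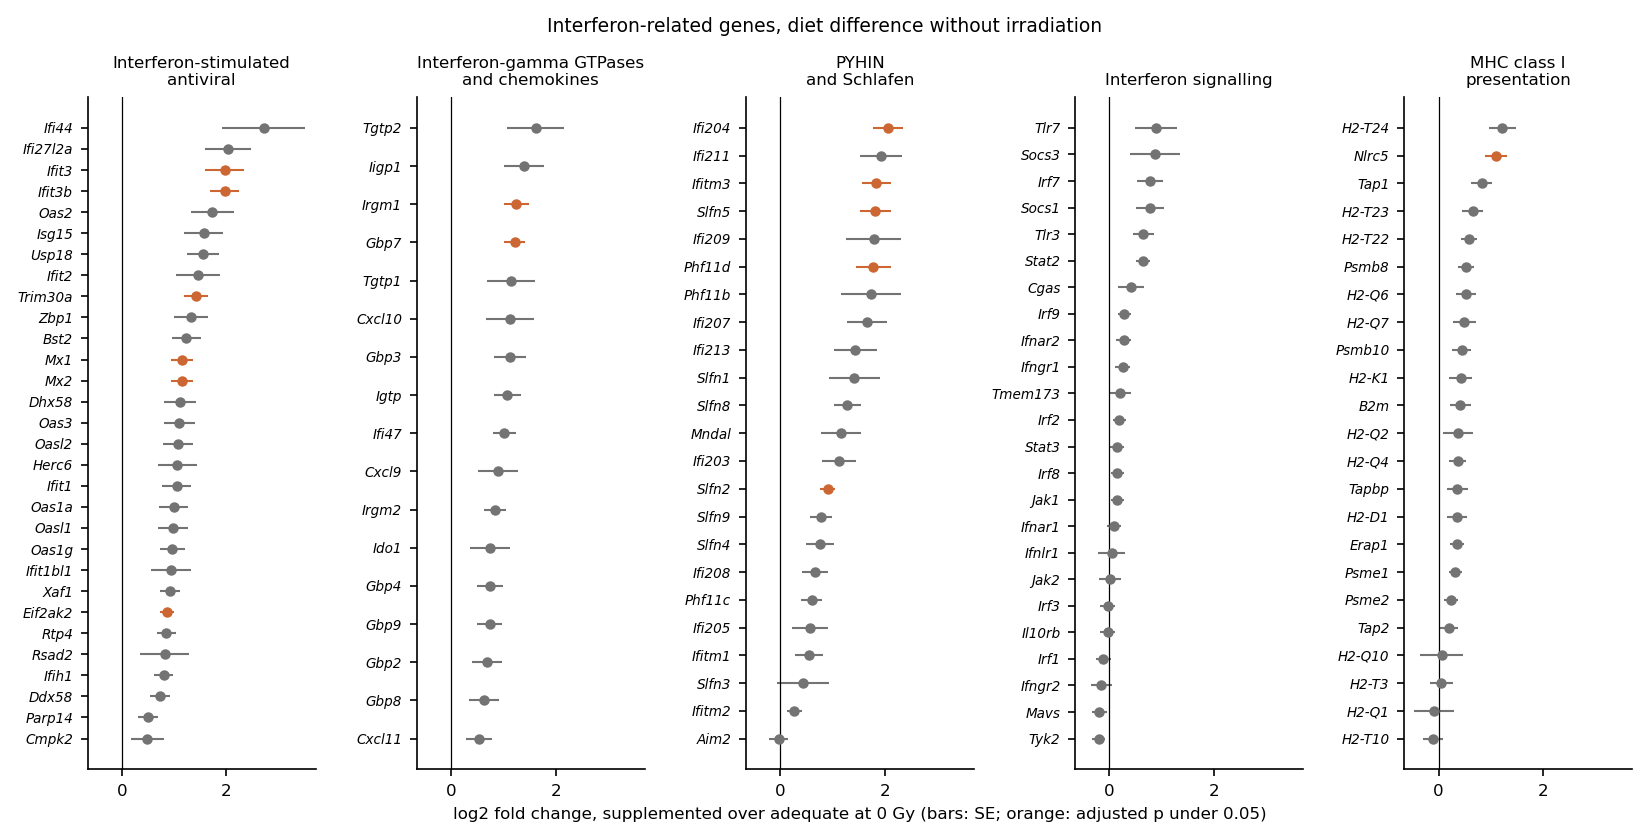
Log2 fold change of tested members of 5 gene lists, supplemented over adequate at 0 Gy (horizontal; bars are SE; orange, adjusted p under 0.05). Of the 30 antiviral genes all lie right of 0, while the signalling genes, whose list has a median of 0.19, lie on both sides of it.

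The start regions of the called genes were searched for the interferon-stimulated response element, to show where in the gene its letters lie, in the promoter table of RefSeq (GRCm38.p6). Genes were matched to the table by symbol, and those without an entry were left out: windows were found for 22 of the 28 genes called higher, 21 of 30 antiviral, 22 of 23 PYHIN and Schlafen and 11 of 17 interferon-gamma genes, some with more than 1. The search took GAAA, any 2 bases and GAAA again, on both strands, in windows from 250 bases before to 50 after each start. Of 32851 windows in that table, 3.44% held a match. So did 9 of 27 windows (33.3%) of the genes called higher, 16 of 24 (66.7%) of the antiviral list, 15 of 25 (60%) of the PYHIN and Schlafen list and 9 of 12 (75%) of the interferon-gamma list. A match is a description of letters and not of binding. A STAT site, TTCNNNGAA, stood in 4 of 27 windows (14.8%) of the genes called higher, against 8.3% of all. It stood in 4 of 24 (16.7%) of the antiviral, 1 of 25 (4%) of the PYHIN and Schlafen and 5 of 12 (41.7%) of the interferon-gamma list. The letters TGATGNAAN of the amino acid response element stood in 2 of 27 (7.41%) of the genes called higher, against 3.95%. Among windows of genes tested, 3.32% held the GAAA match, 6.95% the STAT site and 2.35% the letters TGATGNAAN. The 6 stretches printed here, 190 bases before to 30 after the start on the gene's strand, were chosen because both the rise and the match are present in each. They lie at chr19:34583339-34583558 (plus strand) for Ifit3, chr19:34607767-34607986 (plus) for Ifit3b, chr3:142530146-142530365 (plus) for Gbp7, chr11:48871391-48871610 (minus) for Irgm1, chr17:78882543-78882762 (minus) for Eif2ak2 and chr7:141010715-141010934 (minus) for Ifitm3, and capitals mark the matches.
Ifit3: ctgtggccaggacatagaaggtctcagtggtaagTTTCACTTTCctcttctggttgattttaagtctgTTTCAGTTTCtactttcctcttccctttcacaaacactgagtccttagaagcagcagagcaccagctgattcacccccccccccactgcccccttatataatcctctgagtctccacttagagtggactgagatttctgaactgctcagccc
Ifit3b: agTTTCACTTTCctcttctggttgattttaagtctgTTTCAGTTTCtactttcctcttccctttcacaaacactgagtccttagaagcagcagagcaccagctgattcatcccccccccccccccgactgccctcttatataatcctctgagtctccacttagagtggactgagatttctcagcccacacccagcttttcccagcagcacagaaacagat
Gbp7: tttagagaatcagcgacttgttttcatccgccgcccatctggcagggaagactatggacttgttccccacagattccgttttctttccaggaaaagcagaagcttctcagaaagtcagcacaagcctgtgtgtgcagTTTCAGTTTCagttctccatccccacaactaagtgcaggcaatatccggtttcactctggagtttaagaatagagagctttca
Irgm1: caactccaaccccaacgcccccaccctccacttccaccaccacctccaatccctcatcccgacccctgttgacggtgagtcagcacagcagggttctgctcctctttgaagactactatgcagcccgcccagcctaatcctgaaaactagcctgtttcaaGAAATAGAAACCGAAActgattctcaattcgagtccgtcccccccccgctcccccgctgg
Eif2ak2: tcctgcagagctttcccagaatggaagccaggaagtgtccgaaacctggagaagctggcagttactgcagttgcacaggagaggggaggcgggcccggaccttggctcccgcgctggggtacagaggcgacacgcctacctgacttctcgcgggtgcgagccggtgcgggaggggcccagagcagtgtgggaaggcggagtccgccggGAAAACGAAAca
Ifitm3: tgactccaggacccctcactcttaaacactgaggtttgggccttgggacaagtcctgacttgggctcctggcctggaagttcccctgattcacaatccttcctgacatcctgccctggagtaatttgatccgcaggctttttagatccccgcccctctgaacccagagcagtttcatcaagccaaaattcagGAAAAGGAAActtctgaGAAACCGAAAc
In Ifit3 the 2 matches began 156 and 122 bases before the start and in Ifit3b 188 and 154 bases before it. With the windows shifted by 32 bases against each other and compared without gaps, 201 of 268 positions (75%) of both were identical. The run of the letter c is longer in Ifit3b, so bases after it were compared out of step, and the share understates the likeness. In Irgm1 the 2 matches shared their GAAA and began 30 and 24 bases before the start, while in Eif2ak2 and Ifitm3 the matches lay after it.

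Among genes typical of interferon-gamma, Irgm1 and Gbp7 rose. These were 2 of 17 GTPase and chemokine genes, of which none fell. At an unadjusted p under 0.05, 16 (94.1%) were higher, against 6.03% of all genes. Of the 17, 11 (64.7%) were higher with no overlap, against 4.71% of all genes. The median log2 fold change was 1.02, and DESeq2 called 7, limma voom 2 and edgeR on the 8 libraries 6. Irgm1, an immunity-related GTPase that acts on vacuoles and autophagy, was at 46.8, 43.7, 46.8 and 47.7 CPM on the adequate and 124, 119.8, 111 and 84.9 CPM on the supplemented diet (log2 1.25 ± 0.23, adjusted p = 0.0387). The adequate libraries of Irgm1 spread little (SD 1.76 CPM), and the supplemented ones were each over 80 CPM. Gbp7, a guanylate-binding protein, was at 28.4, 30.8, 37.01 and 33.7 CPM on the adequate and 82.6, 78.98, 79.8 and 62.4 CPM on the supplemented diet (log2 1.22 ± 0.20, adjusted p = 0.0218). Not called were Igtp (Irgm3, 58.7 ± 10.02 and 124 ± 9.32 CPM, log2 1.08 ± 0.27, adjusted p = 0.117) and Ifi47 (log2 1.02 ± 0.22, adjusted p = 0.0721), both without overlap. The chemokine genes Cxcl9 and Cxcl10, which attract T cells, were low and overlapped between the diets. Cxcl9 was at 5.15 ± 2.62 and 9.81 ± 1.83 CPM and Cxcl10 at 5.93 ± 1.82 and 13.2 ± 4.84 CPM.

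The list of PYHIN DNA sensors, Schlafen, Ifitm and Phf11 genes held 5 rises among 23 tested genes and no fall. At an unadjusted p under 0.05, 18 (78.3%) were higher, against 6.03% of all genes. The median log2 fold change was 1.16. DESeq2 called 10, limma voom 6 and edgeR on the 8 libraries alone 8. Ifi204, a PYHIN protein that binds DNA in the cytosol and nucleus, was at 1.92, 2.12, 3.30 and 3.14 CPM on the adequate and 10.4, 14.5, 14.2 and 6.36 CPM on the supplemented diet (log2 2.06 ± 0.29, adjusted p = 0.0147). Ifi202b, of the same family and outside the list, was at 1.92, 1.59, 2.37 and 2.85 CPM on the adequate and 9.52, 11.5, 12.6 and 4.99 CPM on the supplemented diet (log2 2.11 ± 0.36, adjusted p = 0.0239). The Ifi200 genes are close relatives, and reads may be divided among them, so their values are uncertain at the level of the single gene. Aim2, the inflammasome sensor of that family, was at 15.6 ± 2.16 and 14.9 ± 1.70 CPM (log2 -0.03 ± 0.18). Slfn5 was at 27.2, 24.99, 31.1 and 26.3 CPM on the adequate and 104, 111, 108 and 65.1 CPM on the supplemented diet (log2 1.82 ± 0.31, adjusted p = 0.0239). Slfn2, which in T cells is tied to quiescence, rose from 19.1 ± 1.08 to 36.1 ± 4.43 CPM (log2 0.91 ± 0.14, adjusted p = 0.0168). Ifitm3 was at 33.4, 30.7, 51.6 and 41.1 CPM on the adequate and 135, 151, 162 and 114 CPM on the supplemented diet, with no overlap (log2 1.84 ± 0.28, adjusted p = 0.0168). Its relatives Ifitm1 (log2 0.55 ± 0.27) and Ifitm2 (0.27 ± 0.14) overlapped. Phf11d, a PHD finger protein, was at 6.52, 8.48, 12.6 and 8.08 CPM on the adequate and 35.97, 37.1, 32.1 and 20.6 CPM on the supplemented diet (log2 1.78 ± 0.33, adjusted p = 0.0387).

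Of the genes that rose, 13 were on none of the lists, Ifi202b among them. Sp100, a component of nuclear bodies, was at 29.5, 36.4, 49.8 and 42.04 CPM on the adequate and 107, 133, 114 and 76.8 CPM on the supplemented diet (log2 1.43 ± 0.27, adjusted p = 0.0387). Trex1, the exonuclease that removes DNA from the cytosol, was at 17.3, 16.6, 16.3 and 18.5 CPM on the adequate and 46.2, 34.9, 32.8 and 26.3 CPM on the supplemented diet (log2 1.03 ± 0.18, adjusted p = 0.0278). Its gene model shares bases with Atrip on the same strand, so reads of the pair could be divided. Tor3a, a torsin ATPase, rose from 21.2 ± 2.34 to 43.8 ± 10.2 CPM, Spats2l from 22.7 ± 2.66 to 47.3 ± 6.79 CPM, and AW011738 from 3.75 ± 1.01 to 11.2 ± 2.66 CPM. These 5 were all over 2-fold. Pnpt1, the polynucleotide phosphorylase of mitochondria, went from 19.3 ± 2.52 to 38.6 ± 5.21 CPM (log2 0.98 ± 0.18), and Tut4, which adds uridines to RNA ends, from 17.9 ± 3.03 to 34.9 ± 6.86 CPM (0.95 ± 0.16). Ly6c1, a surface protein of monocytes and endothelium, rose from 6.85 ± 2.43 to 15.5 ± 3.21 CPM (1.11 ± 0.21), with an adjusted p of 0.0507 in the fit to the 8 libraries alone. Smaller rises were those of Ehd4, an endocytic recycling protein (0.85 ± 0.13, adjusted p = 0.0147), and Setdb2, a histone methyltransferase (0.69 ± 0.13, adjusted p = 0.033). Another was that of Ascc3, a helicase that acts on collided ribosomes (0.57 ± 0.11, adjusted p = 0.0447). The call of Ascc3 was lost in 15 of 25 alternatives. Gcnt3, which branches the sugar chains of mucins, was at 61.3, 55.02, 54.95 and 59.2 CPM on the adequate and 89.2, 89.4, 93.1 and 99.1 CPM on the supplemented diet (0.69 ± 0.11, adjusted p = 0.0218), and it was the only one of the 28 whose highest value was in supplemented replicate 4.

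Several genes known as interferon targets but on none of the lists, chosen after their values were seen, had separate groups and passed the threshold in the fit to the 8 libraries alone but not in the fit to 16. Ly6e, a surface protein that restricts coronaviruses, was at 106 ± 41.8 and 440.4 ± 86.5 CPM (log2 2.05 ± 0.44, adjusted p = 0.0744), and Ly6a (Sca-1) at 11.4 ± 4.93 and 49.1 ± 3.97 CPM (log2 2.07 ± 0.42, adjusted p = 0.0609). Rnf213, a large ubiquitin ligase, was at 1207 ± 162 and 2629 ± 381 CPM (log2 1.12 ± 0.26, adjusted p = 0.0863), and Mlkl, the effector of necroptosis, at 14.3 ± 1.94 and 28.5 ± 4.70 CPM (log2 0.98 ± 0.20, adjusted p = 0.0578). Adar, which edits double-stranded RNA, gave log2 0.54 ± 0.13 (adjusted p = 0.103). Ifi27, named for its induction by interferon and also chosen afterwards, went the other way. It was called lower by edgeR on the 8 libraries alone (log2 -0.61 ± 0.12, adjusted p = 0.0362) and was not called in the fit to 16.

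The 5 lower genes were of other kinds. The gene ENSMUSG00000082697, for which the annotation gave no name, was the most abundant called gene, at 3586, 4585, 6989 and 2587 CPM on the adequate and 435, 717, 1747 and 527 CPM on the supplemented diet (log2 -2.37 ± 0.45, adjusted p = 0.0387). Its supplemented libraries were all below the lowest adequate one, with a range of values of several fold within each diet. With the 8 unirradiated libraries alone it was not called (adjusted p = 0.122), and the call was lost in 17 of 24 alternatives. Rbm12b1, an RNA-binding protein gene, was at 8.44, 9.36, 8.14 and 8.46 CPM on the adequate and 4.81, 4.32, 2.70 and 2.54 CPM on the supplemented diet (log2 -1.26 ± 0.24, adjusted p = 0.0387). Safb, a scaffold attachment factor of the nucleus, went from 59.9 ± 4.19 to 41.3 ± 1.01 CPM (fell by 0.54 on the log2 scale, adjusted p = 0.0351), and Taok2, a stress-activated protein kinase, from 83.2 ± 5.53 to 57.9 ± 2.37 CPM (fell by 0.52, adjusted p = 0.028). The unnamed ENSMUSG00000079255 went from 11.2 ± 1.79 to 5.49 ± 1.01 CPM (log2 -1.02 ± 0.17).

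In antigen presentation, class I was the part with a call. Nlrc5, the transactivator of MHC class I genes, was at 10.7, 13.4, 16.2 and 14.9 CPM on the adequate and 34.2, 35.1, 25.97 and 25.3 CPM on the supplemented diet (log2 1.10 ± 0.21, adjusted p = 0.0404). It was the one call among 23 class I genes, whose median log2 fold change was 0.37. At an unadjusted p under 0.05, 12 of the 23 (52.2%) were higher, against 6.03% of all genes. DESeq2 called 4 of them, and limma voom and edgeR on the 8 libraries 2 each. H2-T24 was at 36.4 ± 8.01 and 85.7 ± 11.5 CPM (log2 1.22 ± 0.26, adjusted p = 0.0613), and Tap1, the peptide transporter, at 69.3 ± 21.2 and 124 ± 4.44 CPM (log2 0.83 ± 0.20, adjusted p = 0.113), both without overlap. The abundant B2m (951 ± 59.3 and 1269 ± 180.4 CPM, log2 0.42 ± 0.20) and H2-K1 (743 ± 55.6 and 998 ± 113 CPM, log2 0.42 ± 0.22) had separate groups and no call. Of 12 class II genes none was called (1 by edgeR on the 8 libraries alone). At an unadjusted p under 0.05, 4 (33.3%) were higher, against 6.03% of all genes. H2-Aa was at 66.7 ± 12.3 and 107 ± 10.5 CPM (log2 0.68 ± 0.21, adjusted p = 0.202).

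Among Paneth cell genes, Defa35 rose. This alpha-defensin, an antimicrobial peptide of the crypt base, was at 14.6, 16.3, 19.2 and 21.5 CPM on the adequate and 49.4, 26.8, 61.6 and 56.4 CPM on the supplemented diet (log2 1.42 ± 0.21, adjusted p = 0.0147), and replicate 2 was the lowest supplemented library. Alpha-defensin genes are near-identical copies, so reads may be divided among them. It was the only call among 19 Paneth cell genes, whose median was 0.51. At an unadjusted p under 0.05, 11 of the 19 (57.9%) were higher, against 6.03% of all genes. Lyz1, the Paneth cell lysozyme, was at 1027 ± 199.8 and 1109 ± 208 CPM (log2 0.11 ± 0.21). Of 16 antimicrobial and acute-phase genes none was called by edgeR, while DESeq2 called 3 higher and limma voom 2. Over all 16558 genes, DESeq2 called 165 higher and limma voom 41. At an unadjusted p under 0.05, 5 of the 16 (31.25%) were higher, against 6.03% of all genes. Reg3b, a lectin that binds bacteria, was at 21.9, 18.2, 22.6 and 30.2 CPM on the adequate and 47.3, 46.4, 140.1 and 80.01 CPM on the supplemented diet (log2 1.75 ± 0.40, adjusted p = 0.0863), and Reg3g at 37.1 ± 7.01 and 93.02 ± 33.9 CPM (log2 1.33 ± 0.30, adjusted p = 0.0863), both without overlap. The stem cell gene Lgr5 (11.3 ± 1.27 and 12.04 ± 2.08 CPM, log2 0.08 ± 0.24), Olfm4 (0.34 ± 0.23), the proliferation gene Mki67 (0.34 ± 0.26), the enteroendocrine Chga (-0.18 ± 0.15) and the enterocyte phosphatase Alpi (-0.17 ± 0.36) were not called. The p53 target Cdkn1a was at 88.2 ± 17.9 and 80.03 ± 27.1 CPM (log2 -0.13 ± 0.31).

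The genes that handle methionine itself gave no call. None of the tested genes of the methionine cycle (13 tested), transsulfuration and taurine synthesis (11), methionine salvage and polyamines (19) and folate one-carbon metabolism (19) was called by edgeR. DESeq2 called 1, in the folate list, and limma voom and edgeR on the 8 libraries none. At an unadjusted p under 0.05, 2 (15.4%), 0, 3 (15.8%) and 2 (10.5%) genes were higher and none lower, beside 6.03% of all genes. The medians were 0.08, -0.14, 0.06 and 0.18 on the log2 scale. The summed level of the salvage and polyamine genes was narrowly separate between the diets (733.6 to 811 and 811.5 to 919.3 CPM). The sums of the remaining lists named here overlapped.

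Mat2a, the synthetase that makes S-adenosylmethionine outside the liver, was at 65.2, 67.2, 61.7 and 62.3 CPM on the adequate and 82.9, 93.6, 74.8 and 76.5 CPM on the supplemented diet, so that its groups did not overlap (log2 0.36 ± 0.14, adjusted p = 0.318). Its regulatory subunit Mat2b was at 46.2 ± 3.23 and 44.00 ± 3.79 CPM (log2 -0.07 ± 0.11), and the methionine synthase Mtr at 10.5 ± 1.42 and 12.01 ± 1.78 CPM (0.20 ± 0.16). Gamt, which methylates guanidinoacetate to creatine, was at 1.78 ± 0.748 and 3.15 ± 0.88 CPM (log2 0.71 ± 0.32, adjusted p = 0.389). Ahcy, the hydrolase of S-adenosylhomocysteine, was at 5.24 ± 1.98 and 7.14 ± 1.39 CPM (log2 0.37 ± 0.40), and its relative Ahcyl1 gave -0.10 ± 0.18. In transsulfuration, Cbs was near 0 in every library (0 to 0.761 CPM), and Cth, the enzyme that releases cysteine, was at 62.4 ± 9.23 and 61.1 ± 3.34 CPM (-0.02 ± 0.11). The cysteine dioxygenase Cdo1, which opens the route to taurine, was at 8.51 ± 2.35 and 7.45 ± 2.10 CPM (-0.21 ± 0.31), and Sqor, the sulfide oxidoreductase, at 25.8 ± 6.83 and 20.3 ± 4.29 CPM (-0.33 ± 0.24).

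Polyamine genes included Srm, the spermidine synthase, at 8.05, 10.2, 6.70 and 8.08 CPM on the adequate and 17.8, 16.7, 9.89 and 10.7 CPM on the supplemented diet (log2 0.73 ± 0.21, adjusted p = 0.182), and Oaz1, the antizyme that limits polyamine synthesis, at 115 ± 12.6 and 156 ± 19.4 CPM (log2 0.44 ± 0.17, adjusted p = 0.329). Smox, the spermine oxidase, gave log2 0.54 ± 0.25, and Odc1, the decarboxylase that begins polyamine synthesis, 0.02 ± 0.14. The adequate and supplemented libraries overlapped for Srm, Smox and Odc1 and were separate for Oaz1. In the folate list, Fpgs, which adds glutamates that hold folate in the cell, was at 5.75, 5.92, 5.67 and 5.52 CPM on the adequate and 10.7, 10.6, 7.99 and 8.02 CPM on the supplemented diet (log2 0.70 ± 0.17, adjusted p = 0.116), and Atic, of purine synthesis, at 31.4 ± 3.49 and 42.96 ± 5.68 CPM (log2 0.45 ± 0.17, adjusted p = 0.302), both without overlap. Mthfd2 (log2 0.59 ± 0.37), Shmt1 (0.18 ± 0.18), Shmt2 (0.10 ± 0.19) and Tyms (0.06 ± 0.19) overlapped.

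**Figure D3:**
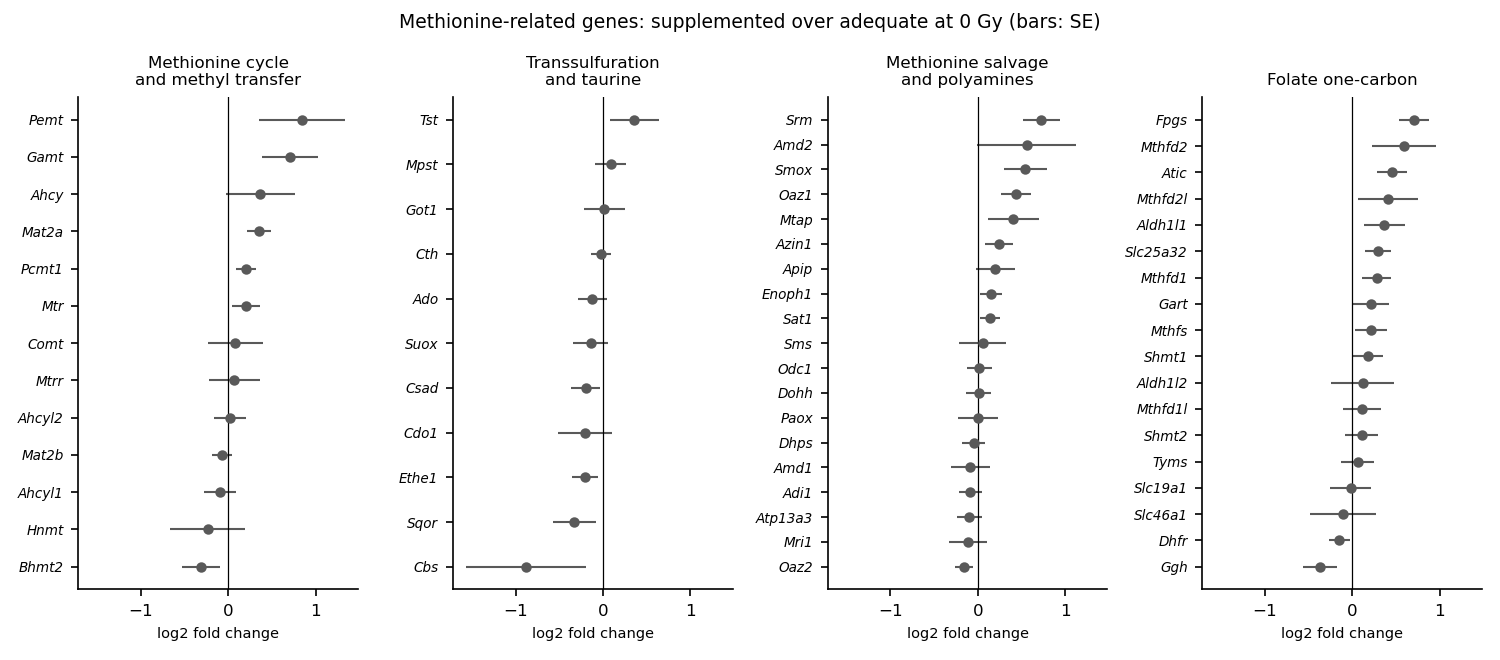
Log2 fold change, supplemented over adequate at 0 Gy (horizontal; bars are SE), for tested genes of 4 methionine-related lists. None passed an adjusted p under 0.05, and the leftmost value, that of Cbs (-0.88 ± 0.69), has the widest bar of its list.

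Genes that respond to amino acid supply or use methyl groups were likewise not called by edgeR in the fit to 16 libraries. Dnmt1, which copies DNA methylation, was at 66.4 ± 5.96 and 71.5 ± 5.71 CPM (log2 0.10 ± 0.18), and Dnmt3a, which sets new methylation, at 84.4, 72.1, 65.6 and 69.1 CPM on the adequate and 56.9, 47.7, 50.4 and 62.01 CPM on the supplemented diet (log2 -0.42 ± 0.11, adjusted p = 0.156). The supplemented values of Dnmt3a were all below the adequate ones. Of 17 DNA methylation genes 2 (11.8%) were higher and 3 lower at an unadjusted p under 0.05, beside 6.03% and 5.91% of all genes. DESeq2 called 1 of them lower, and edgeR on the 8 libraries alone called 1 higher (Zbtb38, a reader of methylated DNA, log2 0.54, adjusted p = 0.0388). Atf4, the transcription factor of the amino acid stress response, was at 65.6 ± 8.31 and 66.5 ± 6.93 CPM (log2 0.03 ± 0.12), and of 22 genes of that response 4 (18.2%) were higher and 2 lower at an unadjusted p under 0.05, with 1 called higher by DESeq2. Slc6a19, the neutral amino acid transporter of the brush border that takes up methionine, was at 257 ± 46.2 and 270.1 ± 65.7 CPM (log2 0.07 ± 0.47), and 1 of 19 transporter genes (5.26%) was higher at that p, a share near that of all genes. Of 26 glutathione and Nrf2 target genes 3 (11.5%) were higher and none lower, among them Slc7a11, the cystine importer (13.8 ± 2.53 and 19.00 ± 0.703 CPM, log2 0.43 ± 0.16, adjusted p = 0.274).

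Other groups showed differences that did not pass. Of 25 immediate early genes, which respond within minutes to stimuli, 13 (52%) were higher and 1 lower at an unadjusted p under 0.05. Over all genes these shares were 6.03% and 5.91%. The median of the 25 was 0.62. None was called by edgeR and 2 were by DESeq2. Atf3 was at 7.29, 14.1, 10.8 and 13.03 CPM on the adequate and 27.1, 15.9, 46.2 and 38.5 CPM on the supplemented diet (log2 1.45 ± 0.36, adjusted p = 0.122), so that it did not overlap. Areg, an epidermal growth factor ligand chosen after its values were seen, was at 9.59, 8.65, 9.18 and 7.23 CPM on the adequate and 21.2, 17.1, 35.2 and 24.1 CPM on the supplemented diet (log2 1.51 ± 0.35, adjusted p = 0.0955). Of 17 fructose, gluconeogenesis and lipogenesis genes none was higher and 4 lower at that p, beside 6.03% and 5.91% of all genes. Their median was -0.26, and DESeq2 called 2 lower. Me1, the malic enzyme that supplies reducing power for fat synthesis, was at 87.4, 80.9, 37.6 and 75.6 CPM on the adequate and 38.9, 33.2, 28.2 and 32.6 CPM on the supplemented diet (log2 -1.08 ± 0.27, adjusted p = 0.12). Scd1, the stearoyl-CoA desaturase, was at 3.07, 157, 26.4 and 9.32 CPM on the adequate and 3.66, 4.22, 2.70 and 2.45 CPM on the supplemented diet, and its difference (log2 -3.96 ± 0.94, adjusted p = 0.122) had adequate replicate 2 as its highest value, far above the rest.

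Markers of other cells that the tissue can hold were set beside these results. Of all genes tested, 6.03% were higher and 5.91% lower at an unadjusted p under 0.05, the shares to read the counts below against. For each list, the sum leaves out genes removed as too low: 3 of 25 macrophage, dendritic cell and neutrophil genes, 2 of 22 T cell genes, 5 of 14 B cell genes, 3 of 8 red blood cell genes and none of the fibroblast and endothelial genes. The summed level of 22 macrophage, dendritic cell and neutrophil genes was 307 to 387 and 324 to 473 CPM, with 3 (13.6%) higher at an unadjusted p under 0.05. That of 20 T cell and intraepithelial lymphocyte genes was 102 to 110.1 and 103 to 141 CPM, with 2 (10%) higher. The 9 B cell and plasma cell genes summed to 294 to 519 and 254 to 472 CPM, with none past that p. The 17 endothelial genes summed to 350.1 to 439 and 401 to 609 CPM, with 7 (41.2%) higher, and the 20 fibroblast and matrix genes to 1826 to 2421 and 2254 to 3273 CPM, with 7 (35%) higher. These sums overlapped between the diets. Sums without overlap were those of the 3 interferon-responsive lists, interferon signalling (1755 to 1980 and 2136 to 2410 CPM) and MHC class I (3828 to 4513 and 4763 to 5611 CPM). The same held for methionine salvage and polyamines, and for mitochondrial ribosomal RNA, which was lower on the supplemented diet (33180 to 53500 and 16680 to 26500 CPM). The 5 red blood cell genes summed to 365 to 591 and 120.3 to 393 CPM, with 1 lower. The 16 tested genes of the exocrine pancreas list (of 23 in the files) summed to 736 to 892 and 718 to 929 CPM, most of it from Zg16 (603 ± 31.7 and 643 ± 59.6 CPM) and Spink1 (178 ± 32.4 and 169.5 ± 28.3 CPM), and the sums overlapped. Of the 16, 8 were lower at an unadjusted p under 0.05 (median -1.87), none was called by edgeR and 3 were called lower by DESeq2. Pnlip, the pancreatic lipase, was at 0, 0.53, 2.37 and 1.14 CPM on the adequate and 0.209, 0.103, 0 and 0.0978 CPM on the supplemented diet (log2 -3.35 ± 0.82, adjusted p = 0.113), and Cela2a, an elastase, at 1.53, 0.618, 2.68 and 1.24 CPM on the adequate and 0.105, 0.617, 0.2 and 0.196 CPM on the supplemented diet (log2 -2.37 ± 0.56, adjusted p = 0.0933). In both diets the levels of these 2 enzyme genes were under 3 CPM, and those of Pnlip overlapped. No marker list was used to adjust the fit, and the part of these cells in the diet differences was not tested.

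Mitochondrial ribosomal RNA made up a smaller share of the supplemented libraries. It took 5.44, 4.39, 5.24 and 3.63% of counts in the adequate libraries and 2.003, 2.08, 2.74 and 1.85% in the supplemented ones (means 4.68 ± 0.832% and 2.17 ± 0.395%). The groups did not overlap, and the exact two-sided permutation p was 0.0286, the smallest that 4 against 4 libraries allow (adjusted p = 0.157 over 11 classes, Benjamini-Hochberg). The genes mt-Rnr1 (12639 ± 3133 and 4404 ± 1781 CPM, log2 -1.52 ± 0.31, adjusted p = 0.0566) and mt-Rnr2 (32247 ± 6415 and 15663 ± 2695 CPM, log2 -1.04 ± 0.32, adjusted p = 0.194) were not called by edgeR in the fit to 16 libraries, while DESeq2 and edgeR on the 8 libraries alone called both lower, and limma voom mt-Rnr1. Mitochondrial messenger RNA took 1.95 ± 0.123% and 1.82 ± 0.176% (exact p = 0.229, adjusted p = 0.279) and nuclear protein-coding genes 74.9 ± 1.19% and 78.2 ± 2.22% (exact p = 0.0857, adjusted p = 0.210). Genes without a symbol took 6.52 ± 0.853% and 4.98 ± 0.433%, also without overlap (exact p = 0.0286, adjusted p = 0.157). At 8.5 Gy the mean share of mitochondrial ribosomal RNA was 5.46% on the adequate and 2.19% on the supplemented diet. The libraries were made from RNA depleted of ribosomal RNA with a kit, and the share of ribosomal RNA left by that step was not tested.

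**Figure D4:**
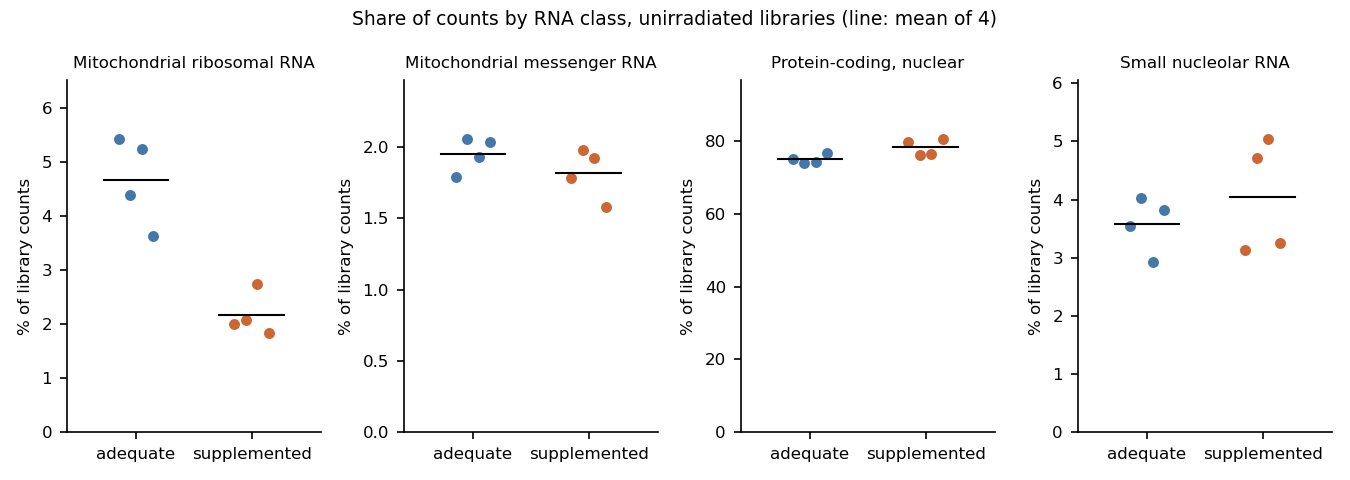
Percent of a library's counts (vertical, from 0) in 4 RNA classes for the 8 unirradiated libraries; points are libraries and lines are means of 4. Mitochondrial ribosomal RNA is the one of the 4 classes without overlap, at 3.63 to 5.44% on the adequate and 1.85 to 2.74% on the supplemented diet.

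The same diet contrast in mice that received 8.5 Gy was set beside these values. It gave no called gene (871 of 16558 at an unadjusted p under 0.05, smallest adjusted p = 0.486 by edgeR), and 352 genes (2.13%) were higher at an unadjusted p under 0.05. Of the 28 genes that rose at 0 Gy, 23 had a positive fold change at 8.5 Gy, and all 5 lower genes a negative one. Ifit3 was at 21.9 ± 12.5 and 33.1 ± 12.3 CPM on the adequate and supplemented diets at 8.5 Gy (log2 0.58 ± 0.38), Ifitm3 at 61.5 ± 28.3 and 76.9 ± 22.9 CPM (0.31 ± 0.27) and Trim30a at 40.2 ± 18.6 and 35.9 ± 7.88 CPM (-0.20 ± 0.24). The median of the 30 antiviral genes was 0.22 there, with 1 higher at an unadjusted p under 0.05. For ENSMUSG00000082697 the difference at 8.5 Gy was log2 -1.45 ± 0.44, from 3012 ± 1271 to 1105 ± 279 CPM.

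The difference between the diet effects at the 2 doses was itself tested. No gene passed (738 at an unadjusted p under 0.05, smallest adjusted p = 0.596), while DESeq2 called 2 genes as having the larger diet effect at 0 Gy. Of the 33 called genes, 30 had an unadjusted p under 0.05 for the difference, the exceptions being ENSMUSG00000082697, Rbm12b1 and Safb. For Trim30a the diet effect at 0 Gy exceeded that at 8.5 Gy by 1.61 ± 0.33 on the log2 scale, and for Ifitm3 by 1.53 ± 0.38 (adjusted p = 0.712 for both). The 33 genes were called at 0 Gy on the same libraries, so that this comparison is not independent of their selection.

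**Figure D5:**
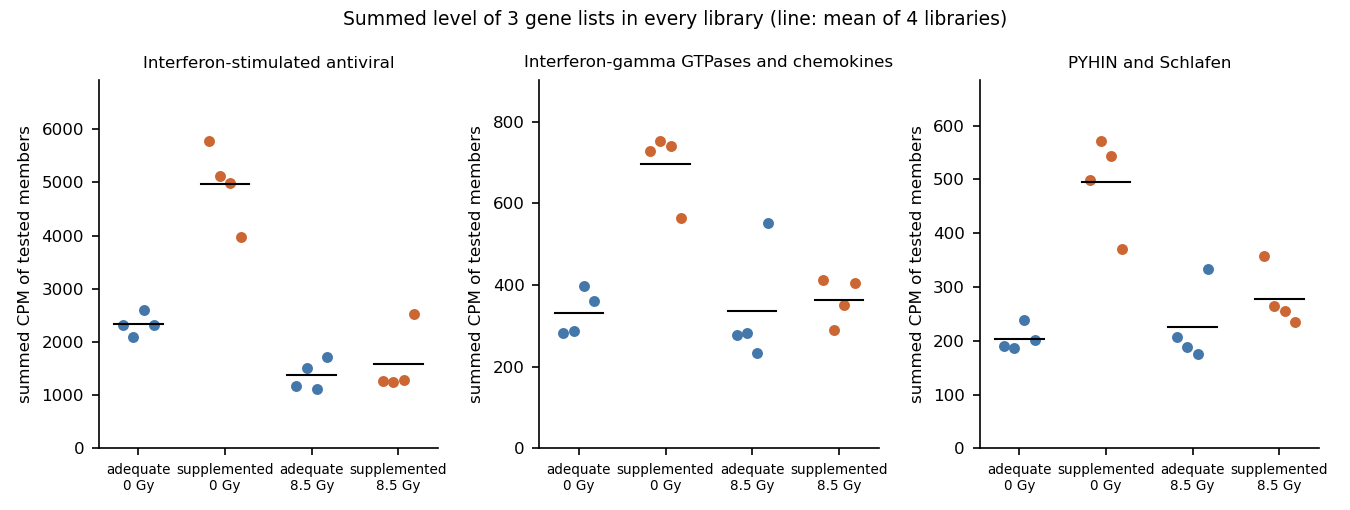
Summed CPM (vertical, from 0) of the tested members of 3 interferon-responsive lists in every library of the 4 groups; points are libraries and lines are means of 4. The unirradiated supplemented libraries lie above the unirradiated adequate ones in each list (3980 to 5770 against 2097 to 2597 CPM for the 30 antiviral genes), and the diets overlap at 8.5 Gy.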

How the data were processed

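RNA from proximal jejunum was depleted of ribosomal RNA, fragmented and made into libraries with a small RNA protocol, per the labels' protocols. The authors deposited 1 file of expected counts per gene for each of the 16 libraries, which were made before deposit with Bowtie2 2.2.9 and RSEM 1.3.0 on build NCBIM37, per the submitters' processing notes (which name edgeR 3.2.4 too). The annotation release and the strand setting are not given in the sources used here. Of 37620 gene IDs, 32897 were given a symbol, from GENCODE M21 (GRCm38) or, for IDs absent from it, from a further list of gene names. GENCODE M21 also gave the gene types and the overlaps of gene models, and was not used for counting.

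Expected counts were rounded to whole numbers. Genes were filtered with filterByExpr on the 4 groups (16558 kept), scaled by TMM and tested with the robust quasi-likelihood F test of edgeR 4.0.16 (R 4.3.3) in 1 fit to all 16 libraries, with Benjamini-Hochberg adjustment and a threshold of 0.05. The common biological coefficient of variation was 0.219, and the SE of a log2 fold change was taken from the F statistic. The steps were tested on simulated data. Shares of RNA classes were compared by exact permutation. Alternatives included DESeq2 1.42.0, limma voom (limma 3.58.1), other scalings and filters, a fit to the 8 unirradiated libraries, and leaving out libraries.

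The labels name no batch, animal or pairing, and replicates were numbered in accession order. Library totals lay between 2.57 and 15.51 M counts. Within-group pairs differed by more than sampling noise (chi-square per degree of freedom of 10.3 to 25.8), so no library was counted as a repeat sequencing of another. Whether libraries shared an animal cannot be told from this, because separate preparations of the same RNA could also differ by more than sampling noise. The comparison and the gene lists were chosen with earlier results of these data known. Genes named are the 14 largest called rises and falls (groups apart, average log2 CPM 1 or more), called list members, members of the 4 methionine-related lists, and 13 marker genes. The remaining genes were named after their values were seen. Some genes of the lists enter the counts and medians but are not reported here by name.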

Additional observations from a re-analysis of the deposited data

Results flagged for a closer look

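In 18 of 262 groups of 4 values (120 genes in both diets, and the RNA classes), 1 library lay far from the other 3; chance alone marks about 1 group in 20. On the adequate diet, replicate 1 was apart for Aim2 (18.8 CPM, the others 14.2 to 14.7), Cmpk2 (120 CPM, the others 81.6 to 87.5) and H2-Aa (48.3 CPM, the others 70.5 to 74.7). Replicate 2 was apart for Scd1 (157 CPM, the others 3.07 to 26.4), Cdo1 (12 CPM, the others 7.04 to 7.67), Mthfd2 (5.83 CPM, the others 2.78 to 3.23) and Shmt2 (17.6 CPM, the others 12.9 to 13.5). Replicate 3 was apart for Irf7 (247 CPM, the others 189 to 197) and Trim30a (55.8 CPM, the others 40.1 to 42.2). Replicate 4 was apart for Cxcl9 (9.04 CPM, the others 3.3 to 4.22), Cxcl10 (8.66 CPM, the others 4.95 to 5.12) and Sqor (15.7 CPM, the others 27.8 to 30.3).

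On the supplemented diet, replicate 4 was the low one for the called genes Slfn5 (65.1 CPM, the others 104 to 111), Slfn2 (29.5 CPM, the others 37.7 to 39.2) and Pnpt1 (30.9 CPM, the others 40.4 to 42.2). Replicate 3 was apart for Sis (10253 CPM, the others 7036 to 7572), for Ifnar2 (32.7 CPM, the others 29.6 to 29.8) and for the share of counts in microRNA genes (0.0547%, the others 0.071 to 0.0733%).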

How the results depend on the processing

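The number of called genes did not hold under the alternatives. The 33 kept their direction in every alternative that tested them, which the lack of overlap between their groups nearly fixed in advance. Against 28 higher and 5 lower genes, and 13 higher in the 3 interferon-responsive lists, DESeq2 gave 165, 61 and 40, the 8 unirradiated libraries alone 111, 28 and 40, and an adjusted p under 0.01 gave 0, 0 and 0. The lower genes numbered 11 with limma voom, 3 without a filter and 9 with at least 10 counts in 8 libraries. Leaving out 1 library at a time gave 0 to 45 higher, 0 to 4 lower and 0 to 16 in the interferon lists. Alternatives chosen after seeing the data were to leave out the 3 libraries under 4 M counts, which gave 0, 0 and 0, and to leave out 1 library at a time from the 8 unirradiated ones, adequate replicates 1 to 4 first, which gave 64, 46, 112, 85, 64, 56, 61 and 145 higher, 9, 5, 27, 27, 6, 6, 15 and 21 lower, and 30, 24, 37, 33, 29, 25, 28 and 41 in the interferon lists. For the difference between doses, DESeq2 called 2 genes with the larger diet effect at 0 Gy and edgeR 0. The cause of these changes was not tested. Of 328 uncalled genes followed through the alternatives, most of them not named here, 35 changed sign under some alternative. No paired analysis was possible because the labels give no replicate numbers shared between groups. The depth of adequate replicate 1, 2.57 M counts, limits what low genes can show.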
